A study of Zea mays with 3 samples.

Results

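The windows described here are 1-kb stretches of maize chromosomes 1 to 10 that held a high number of reads in each of 3 anti-CENH3 ChIP-seq libraries, outside the densest centromere blocks. They were chosen by their read counts. After 1 read was kept per start, end and strand, a window had to hold at least 10 times the reads expected from the median of its library, in B73, in F3-152 and in F3-600 alike. The median is that of the 10-kb bins with at least 1 read, divided by 10, and all levels below are given as multiples of it. Blocks of 1 Mb in which 30 or more of the 10-kb bins reached 10 times the 10-kb median in any library were left out, as were the first and last 1 Mb of each chromosome. Of 2106334 windows in all, 2075324 remained to be tested and 628 met the rule (0.0303%). Windows up to 2 kb apart were joined, which gave 193 separate sites.

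Each of the 3 libraries came from young leaves. B73, the inbred line of the reference genome, carries the label of control, and F3-152 and F3-600 are lines of a study on irradiated maize whose constitution is not given in the sources used here. Nuclei were digested with micrococcal nuclease and chromatin was precipitated with a rabbit polyclonal antiserum raised against peptides of maize CENH3. Neither pooling nor the number of plants behind a library is given. All positions are in B73 RefGen_v4, counted from 1. With 1 library per line, no test between lines was possible, and line, depth and run of sequencing cannot be told apart.

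CENH3 is the histone H3 variant that replaces H3 in the nucleosomes of active centromeres and directs the assembly of the kinetochore. Maize centromeres hold the tandem repeat CentC and the centromeric retrotransposons of maize, called CRM, and lie in wide pericentromeric regions rich in other retrotransposons. Because related copies of such elements occur at many places, a short read from one copy can be hard to place, and the mapping quality of a read, MAPQ, is a measure of how certain its place is. The sequence content of the windows, their repeats and their genes were not analysed here.

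On chromosomes 1 to 10 there were 7709773 deposited reads in B73, 20955210 in F3-152 and 14444810 in F3-600. Keeping 1 per position and strand left 79.8%, 96.3% and 96.4% of them. The 10-kb medians were 28, 89 and 63 distinct reads, so that a window needed at least 28, 89 and 63 reads to be high. An input library was not analysed here, and whether the windows are high without the antibody was not tested. The 95% intervals given below are exact Poisson intervals for counts and exact binomial intervals for shares, and they cover counting error only. Mates of a fragment were both counted and are not independent, so the intervals are too narrow.

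Each library by itself had more than 3 times as many high windows as the set shared by all. In B73, 2080 of the tested windows were high (0.1%), in F3-152 2545 (0.123%) and in F3-600 1965 (0.0947%). The 628 shared windows were 30.2% of the high windows of B73, 24.7% of those of F3-152 and 32.0% of those of F3-600. High in a single library were 899 windows of B73, 970 of F3-152 and 603 of F3-600. These shares follow from the counts that the rule used and are a description.

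The counts at the threshold were discrete. The lowest level of the 5 windows just inside was 10, as in the window at chromosome 1, 125707001 to 125708000, with 28 reads in B73, 233 in F3-152 and 173 in F3-600. The lowest level of the 5 windows just outside was 9.89, each with 88 reads in F3-152. One of these, at chromosome 3, 86126001 to 86127000, held 82 reads in B73 and 139 in F3-600 and missed by a single read in F3-152.

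The name of narrow sites was held against the data first, by the density of the block around a window and not by width. Fewer than 1 in 2 of the windows lay outside blocks with many enriched bins. Of the 628 windows, 332 (52.9%) lay in 7 blocks of 1 Mb with 10 or more enriched 10-kb bins in at least 1 library, a density below that at which the rule leaves a block out. Of these blocks, 4 adjoined a block left out. On chromosome 3, which had no block left out, the blocks from 85 to 87 Mb held 48 and 80 of the windows. On chromosomes 4 and 5 the blocks beside those left out held 67, 84 and 37. These 332 windows, in 60 sites, are called dense-block windows below. The remaining 296 windows, in 133 sites, are called isolated. No site held windows of both kinds.

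Most isolated sites were narrow. A single window made up 79 of the 133 sites (59.4%), 2 to 5 windows made up 46, and 8 sites had more than 5. Around the best window of an isolated site, the median level was 26.4 times in B73, 24.2 in F3-152 and 31.4 in F3-600, which the choice of windows sets. At 1 kb to the left it was 4.29, 5.73 and 6.51 times, and at 10 kb to the left 0.714, 1.12 and 0.952 times. To the right it was 5.36, 5.73 and 7.62 times at 1 kb and 1.07, 1.12 and 1.27 times at 10 kb. The mean level from 2 to 10 kb on both sides had a median over isolated sites of 1.34 times in B73, 1.62 in F3-152 and 1.70 in F3-600. It was below 2 times in 100, 80 and 85 of the 133 sites. Flank levels, here and below, leave out windows that met the rule themselves, so they are too low where sites lie close together. Dense-block sites had flanks of 5.82, 3.90 and 5.49 times, above the library median as well. The split into dense and other blocks used enriched bins of the same counts, so it favours this difference in flanks by itself.

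**Figure D1:**
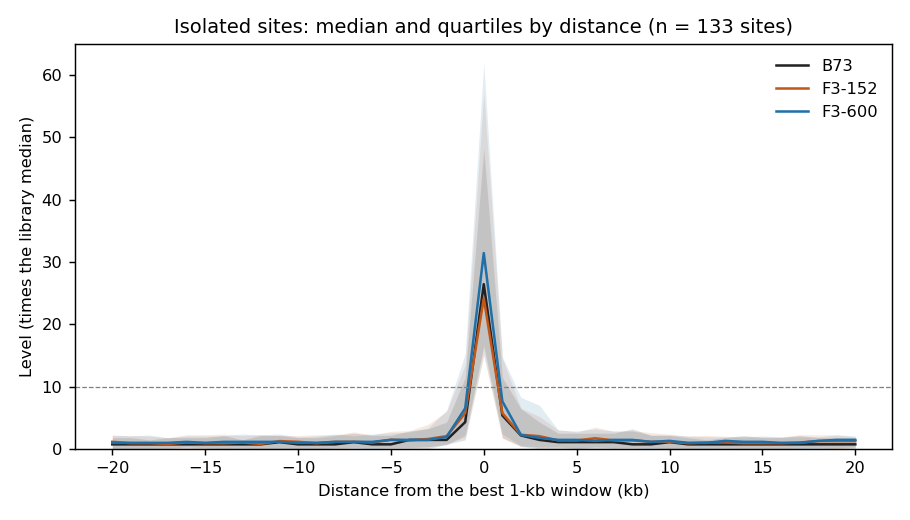
Level per 1-kb window (y axis, times the library median) against the distance from the best window of each of the 133 isolated sites (x axis, kb). Lines are medians over sites for B73, F3-152 and F3-600, shading runs from the lower to the upper quartile, and the dashed line is the threshold of 10. The medians fell from 26.4, 24.2 and 31.4 at the best window to 0.714, 1.12 and 0.952 at 10 kb to the left. At 10 kb to the right they were 1.07, 1.12 and 1.27.

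The levels ranged widely. Over all 628 windows the median was 26.1 times in B73, 22.9 in F3-152 and 26.2 in F3-600. Isolated windows had medians of 26.4, 29.2 and 37.2 times and maxima of 567, 317 and 533 times. Dense-block windows had medians of 25.9, 21.4 and 23.5 times. The 1482 windows that were high in all 3 libraries inside the 11 blocks left out, where CENH3 signal was densest, had medians of 27.9, 23.8 and 23.7 times. The best windows of 63 isolated sites were at 20 times or more in every library, those of 27 at 50 times or more, and those of 10 at 100 times or more. The 628 windows took 1.29% of the distinct reads of B73 (1.28% to 1.30%), 1.04% of those of F3-152 (1.03% to 1.04%) and 1.39% of those of F3-600 (1.39% to 1.4%). The 10 highest windows held 23.3% of the reads of all isolated windows in B73, 18.7% in F3-152 and 21.2% in F3-600.

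Of the 10 sites with the highest level in their lowest library, 7 were isolated, and the 10 sites lay on 6 chromosomes. The first of the isolated was at chromosome 1, 137112001 to 137116000. Its best window held 1096 reads in B73 (391 times, interval 369 to 415), 2710 in F3-152 (304 times, 293 to 316) and 2949 in F3-600 (468 times, 451 to 485). The site stood on flanks of 2.45, 2.66 and 2.48 times. Of its reads, 0.816% in B73, 1.55% in F3-152 and 1.19% in F3-600 had a MAPQ of 60, the highest value in the files.

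A wider site lay on the same chromosome at 197008001 to 197015000. All 7 of its windows were high in each library, and the best held 802 reads in B73 (286 times, 267 to 307), 2817 in F3-152 (317 times, 305 to 328) and 3361 in F3-600 (533 times, 516 to 552). The flanks were at 0.112, 0.337 and 0.208 times, well under the library medians. The plot of the highest isolated sites by 100-base step shows only a part of this site. In that part, 1700 bases were at or above 50% of the plotted peak in B73, 1800 in F3-152 and 800 in F3-600.

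The highest level of all in B73 was in a site at chromosome 8, 48874001 to 48876000. Its best window held 1588 reads in B73 (567 times, 540 to 596), 2369 in F3-152 (266 times, 256 to 277) and 3084 in F3-600 (490 times, 472 to 507). Only 22.5% of its B73 reads, 24.1% of its F3-152 reads and 18.8% of its F3-600 reads were aligned over 101 bases, the most frequent length. F3-152 was the lowest library here, and the F3-152 and B73 intervals did not overlap.

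Further isolated sites of this height were spread over chromosomes 7, 6, 4 and 1. The site at chromosome 7, 56656001 to 56664000, had 8 windows and a best window at 381 times in B73, 249 in F3-152 and 305 in F3-600. The site at chromosome 6, 106904001 to 106906000, reached 229, 256 and 350 times on flanks of 0.312, 0.0632 and 0.119 times. The flanks were thus nearly empty in all 3 libraries. The site at chromosome 4, 96457001 to 96461000, reached 304, 167 and 290 times. No read of F3-152 fell in the 15 windows of its flanks that did not meet the rule. The site at chromosome 1, 134399001 to 134401000, reached 357, 188 and 158 times and was the only one of the 10 with about 20% of its reads at a MAPQ of 60.

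The remaining 3 of the 10 lay close together on chromosome 9, inside a block counted as dense because of 12 enriched bins in F3-600, with 3 such bins in B73 and 8 in F3-152. At 57391001 to 57394000 the best window held 1244 reads in B73 (444 times, 420 to 470), 2781 in F3-152 (312 times, 301 to 324) and 2098 in F3-600 (333 times, 319 to 348). At 57398001 to 57405000 it was at 303, 188 and 278 times, and at 57435001 to 57439000 at 309, 301 and 454 times. In share of reads with a MAPQ of 60, all 3 resembled isolated sites, from 2.0% to 5.42% over the libraries. The flanks of the last of them were at 0.826 times in B73, 7.56 in F3-152 and 14.2 in F3-600, so that the surroundings of this site differed between libraries more than the site itself.

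**Figure D2:**
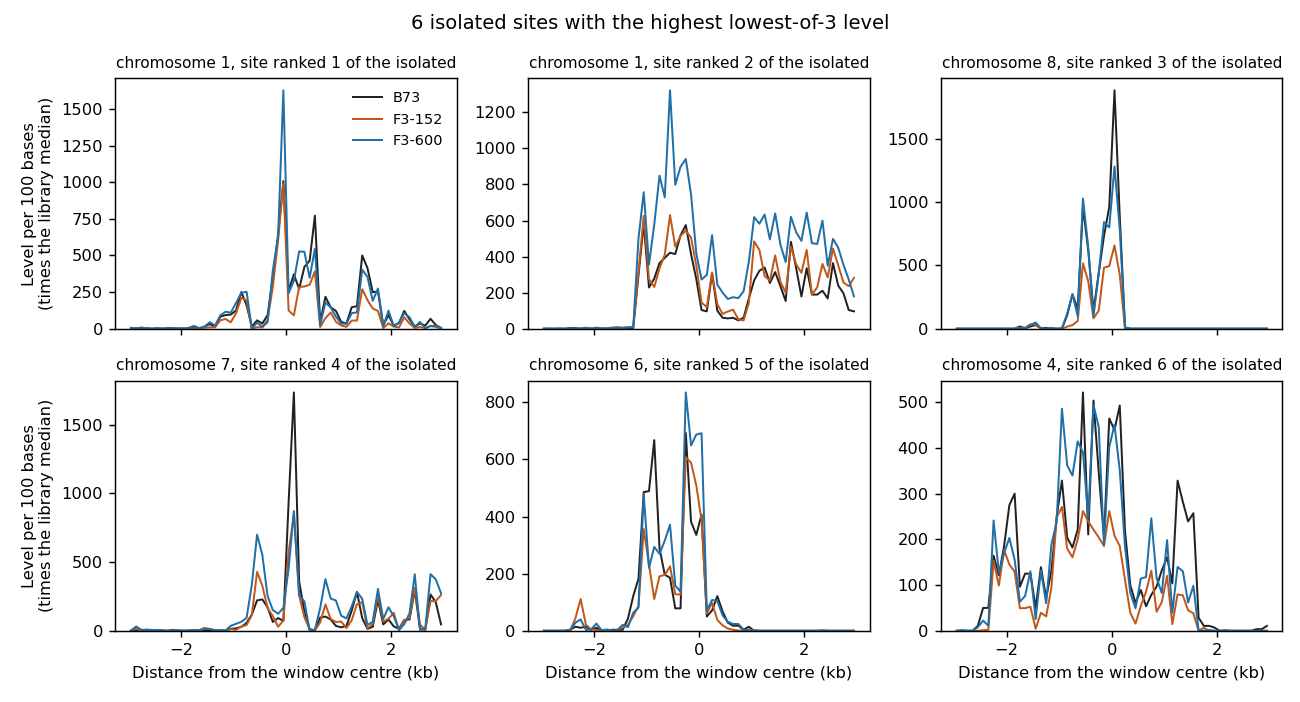
Level per 100 bases (y axis, times the library median, with a separate linear scale in each panel) against the distance from the centre of the best window (x axis, kb) for the 6 isolated sites with the highest level in their lowest library. Lines are B73, F3-152 and F3-600. The 3 lines rise and fall at largely the same places in each panel, on chromosomes 1, 1, 8, 7, 6 and 4. The second panel shows a part of the site of 7 windows.

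The sites with the most windows were of another kind. Of the 5 widest, 4 were dense-block sites. At chromosome 5, 106003001 to 106044000, 37 windows were high in all 3 libraries, with a best window at 28.2 times in B73 (22.3 to 35.2), 28.5 in F3-152 (25.1 to 32.3) and 30.2 in F3-600 (26.0 to 34.8). Of its reads, 80.2%, 78.1% and 62.6% had a MAPQ of 60, and 87.0%, 84.7% and 82.3% were aligned over 101 bases. The site thus had many windows, moderate levels and well-placed reads.

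The others of this kind were at chromosome 4, 110199001 to 110230000, with 27 windows, and at chromosome 5, 104962001 to 104983000 and 104898001 to 104913000, with 21 and 15 windows. Their best windows were between 22.1 and 34.3 times in all libraries. The widest isolated site lay at chromosome 1, 125697001 to 125717000, with 18 windows over 20 kb. Its best window was at 79.3 times in B73 (69.2 to 90.4), 96.9 in F3-152 (90.5 to 104) and 112 in F3-600 (104 to 121), and its flanks were at 0.312, 0.583 and 0.437 times. Its flanks were thus lower than the medians of both isolated and dense-block sites.

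On chromosomes 2, 3, 5 and 10 the best site was lower or was not isolated. Chromosome 2 had its best site at 100808001 to 100809000, 1 window with 106 reads in B73 (37.9 times), 220 in F3-152 (24.7 times) and 230 in F3-600 (36.5 times). Chromosome 3 had a dense-block site at 85923001 to 85934000, with levels of 256, 117 and 240 times in its best window. Chromosome 5 had an isolated site at 108355001 to 108360000, with 93.2, 94.3 and 127 times. Chromosome 10 had an isolated site at 50214001 to 50222000, with 40, 37.1 and 37.1 times, where the ratio of the highest to the lowest library over the site was 1.06 (0.932 to 1.20) and the libraries did not differ beyond counting error.

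The level of a library in a window is not set by the choice where that library had no part in it. Windows were therefore chosen on each pair of libraries, with the blocks left out set from the same pair, and read in the library not used. Of 1421 windows chosen on F3-152 and F3-600, 855 were high in B73, or 60.2% (57.6% to 62.7%), where 0.188% of all windows outside the blocks were high. Of 798 chosen on B73 and F3-600, 628 were high in F3-152, or 78.7% (75.7% to 81.5%), against 0.16% of all. Of 1011 chosen on B73 and F3-152, 628 were high in F3-600, or 62.1% (59.0% to 65.1%), against 0.139% of all. With the blocks of all 3 libraries left out instead, 628 of 1192 windows chosen on F3-152 and F3-600 were high in B73, or 52.7%. The shares in F3-152 and F3-600 were unchanged. In both, the 628 windows are the members themselves, so these shares restate the overlap in the rule's own counts and are a description.

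Dense blocks, set from the same pair of libraries, were then left out as well. The blocks so left out differ between pairs. In B73, 303 of the 493 windows that remained were high, or 61.5% (57.0% to 65.8%), where 0.124% of all windows outside these blocks were high. In F3-152 they were 296 of 343, or 86.3% (82.2% to 89.8%), against 0.0986% of all. In F3-600 they were 359 of 380, or 94.5% (91.7% to 96.5%), against 0.106% of all. These 359 include windows called dense-block elsewhere, 48 on chromosome 3 and 15 on chromosome 9. Their blocks reach 10 enriched bins in F3-600 only. A window that was high in 2 libraries and outside their dense blocks was thus mostly high in the other as well. Since different blocks were left out, these shares do not rank the libraries. B73 is the shallowest library, with a threshold of 28 reads, and the part of its depth in its share was not tested. Neighbouring windows share their site, so the windows are not independent.

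**Figure D3:**
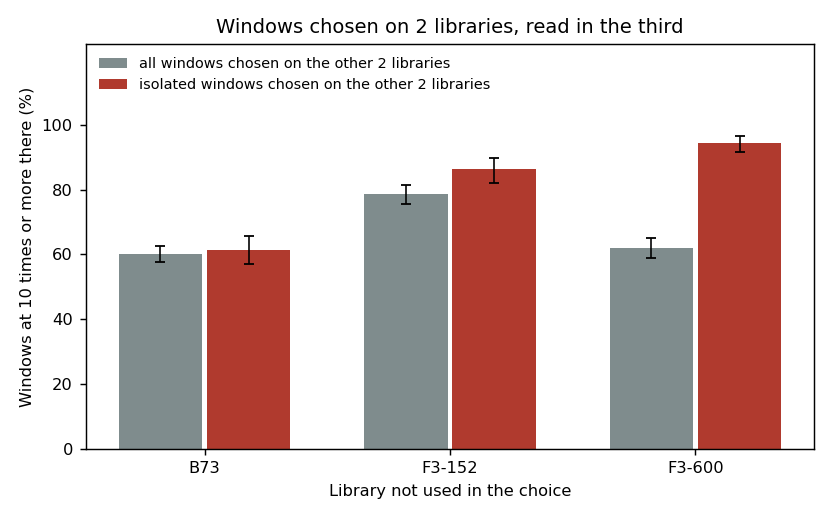
Share of the windows chosen on 2 libraries that were at 10 times or more in the library not used (y axis, percent, from 0) for each such library (x axis). Grey bars are all windows so chosen, red bars those outside the dense blocks of the same 2 libraries, and error bars are exact binomial intervals at 95%. The red bars are at 61.5% in B73, 86.3% in F3-152 and 94.5% in F3-600, with different blocks left out for each.

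Site by site, the libraries followed a similar order of levels with departures beyond counting error. Over the 133 isolated sites, Spearman's rho of the site levels was 0.686 between B73 and F3-152, 0.762 between B73 and F3-600 and 0.834 between both F3 lines. The points share their libraries and the threshold, and the values are a description. The ratio of the highest to the lowest library had a median of 1.61 over the isolated sites and 1.75 over the 60 dense-block sites. In 105 of the 133 isolated sites and 53 of the 60 dense-block sites the interval of this ratio lay above 1. The ratio starts at 1 by construction. F3-600 was the highest library in 65 isolated sites, B73 in 41 and F3-152 in 27. Of the dense-block sites, B73 was the highest in 32, F3-600 in 18 and F3-152 in 10. These tallies depend on the scaling of each library to its own median. The ratio was above 2 in 32 isolated sites and above 3 in 9. Among the 60 dense-block sites it was above 2 in 17 and above 3 in 2.

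**Figure D4:**
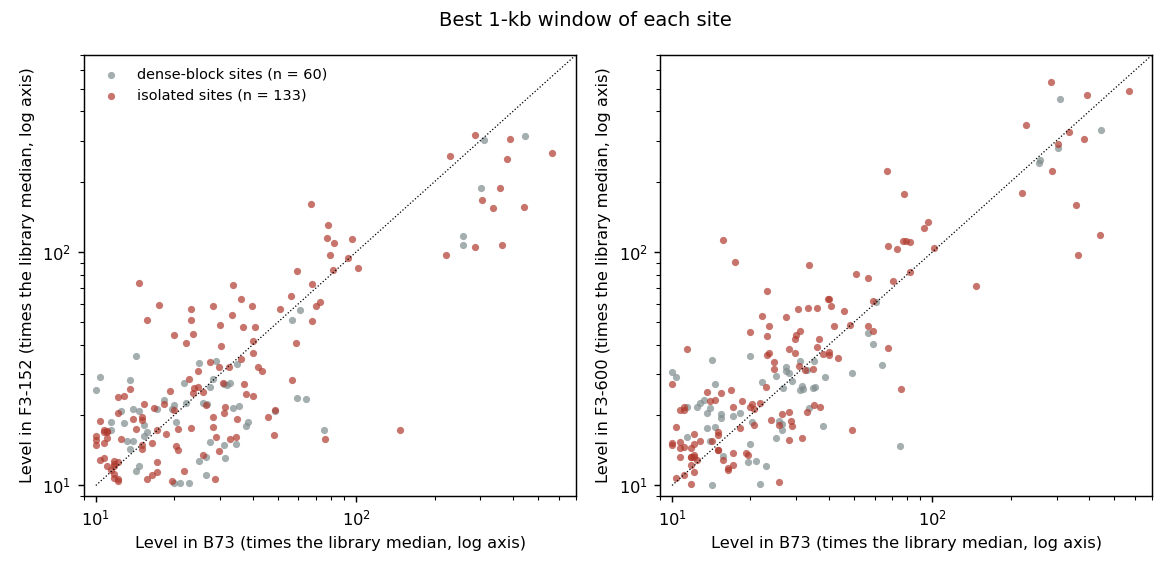
Level of the best window of each site (times the library median, both axes on a log scale), with B73 on the x axis and F3-152 (left panel) or F3-600 (right panel) on the y axis. Red points are the 133 isolated sites, grey points the 60 dense-block sites, and the dotted line marks equal levels. Points lie along the line from 10 to more than 500 times, with a few sites far from it on either side.

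The 5 sites with the largest ratio were given by rule, and their direction differed. At chromosome 2, 157588001 to 157589000, the window held 412 reads in B73 (147 times, 133 to 162), 153 in F3-152 (17.2 times, 14.6 to 20.1) and 452 in F3-600 (71.7 times, 65.3 to 78.7), a ratio of 8.56 (7.09 to 10.4). The flanks were at 34.5 times in B73 and 18.6 in F3-600, and at 0.892 in F3-152. From 5 to 20 kb the flanks were at 1.46 times in B73, 0.592 in F3-152 and 0.937 in F3-600, so that the wider surroundings were near or under the library medians in each.

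At chromosome 6, 13570001 to 13571000, B73 was the lowest library instead, with 44 reads in B73 (15.7 times, 11.4 to 21.1), 455 in F3-152 (51.1 times, 46.5 to 56.0) and 711 in F3-600 (113 times, 105 to 121). The ratio was 7.18 (5.29 to 9.97) and the flanks were below 0.5 times in all libraries. At chromosome 8, 81962001 to 81966000, B73 was again the lowest, with 17.5 times against 59.1 in F3-152 and 90.5 in F3-600. Both sites were thus high in the F3 lines and nearer to the threshold in B73.

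In the other two, B73 was the highest library. At chromosome 9, 57642001 to 57643000, the levels were 75.4 times in B73, 17.3 in F3-152 and 14.8 in F3-600, a ratio of 5.10 (3.98 to 6.59). Repeat reads, deposited reads that share their start, end and strand with an earlier one and were not counted, made up 70.4% of the B73 reads there, 38.4% in F3-152 and 14.7% in F3-600. At chromosome 10, 35065001 to 35066000, the levels were 75.7, 15.8 and 25.9 times, and the flanks were at 1.56 times in B73, 8.29 in F3-152 and 44.4 in F3-600. From 5 to 20 kb they were at 0.917, 1.82 and 7.68 times, and F3-600 had the highest surroundings on both measures.

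In properties that the rule did not use, isolated windows differed from those at centromeres. In isolated windows, reads with a MAPQ of 60 made up 8.0% in B73 (7.75% to 8.25%), 8.37% in F3-152 (8.22% to 8.52%) and 6.39% in F3-600 (6.25% to 6.52%). In dense-block windows they were 42.5%, 45.5% and 38.4%. In the high windows of the blocks left out they were 64.7%, 64.5% and 58.7%, near the 60.5%, 57.8% and 57.0% of all other tested windows. Reads under a MAPQ of 30 made up 44.0%, 41.5% and 43.7% in isolated windows, against 8.59%, 12.1% and 12.1% in the other tested windows. Isolated windows thus held a larger share of less certainly placed reads in all 3 libraries. With reads under a MAPQ of 30 removed, 213 of the 296 isolated windows (72.0%) and 314 of the 332 dense-block windows still met the rule.

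The difference from the blocks left out remained in a narrower range of levels. Among windows at 10 to 40 times in all 3 libraries, a restriction chosen after seeing the data, 143 isolated windows had 16.6%, 16.7% and 15.5% of their reads at a MAPQ of 60. The 1274 such windows of the blocks left out had 65%, 64.7% and 60.4%, and the 295 dense-block windows had 63.6%, 63.1% and 56.4%. Taken site by site, 75 of the 133 isolated sites had fewer than 10% of their reads at a MAPQ of 60 in every library. In 7 sites the share was above 50% in every library, and in 3 above 80%.

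These 3 sites were named after their values were seen. At chromosome 5, 192368001 to 192369000, all reads had a MAPQ of 60, and the window held 33 reads in B73 (11.8 times), 110 in F3-152 (12.4 times) and 83 in F3-600 (13.2 times). A site of 2 windows lay beside it at 192376001 to 192380000, where the share was 86.4% in B73, 94.6% in F3-152 and 93.8% in F3-600 and the best window was at 10.7, 13.1 and 13.2 times. The flanks of the latter were at 3.57, 6.78 and 5.22 times. At chromosome 8, 54702001 to 54703000, the share was 91.7%, 94.2% and 89.2%, with levels of 25.7, 25.1 and 10.3 times on flanks of 0.920, 0.934 and 1.30 times. The sites with well-placed reads were thus near the threshold in at least 1 library, far under the highest isolated sites.

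Reads in isolated windows were also shorter as aligned and more often repeated. Those aligned over 101 bases made up 51.3% in B73, 47.0% in F3-152 and 48.3% in F3-600, against 85.2%, 75.7% and 79.6% in the other tested windows. Repeat reads made up 54.4% (54.1% to 54.7%), 55.5% and 56.2% of the deposited reads in isolated windows, and 45.1%, 37.4% and 36.6% in dense-block windows. In the blocks left out they were 26.0%, 19% and 15.2%. The other tested windows had 19.2% in B73, 1.72% in F3-152 and 1.25% in F3-600, so that B73 carried more repeat reads than the F3 lines outside the isolated windows. These shares weigh the highest windows most. As medians over windows, they were 27.5%, 32.5% and 27.4% in isolated windows and 21.2%, 14.4% and 11.3% in dense-block windows. In the blocks left out the medians were 22.9%, 16.1% and 11.9%.

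The share of repeat reads depends on the level, since many reads on few positions coincide more often. Among windows at 10 to 40 times, the isolated ones had 29.1%, 27.5% and 20.5%, the dense-block ones 22.8%, 15.2% and 12.2%, and those of the blocks left out 24.9%, 16.9% and 12.4%. In this range dense-block windows were therefore no higher than the blocks left out. The mean levels of isolated windows were still lower there, at 18.2 times in B73, 19.1 in F3-152 and 21.2 in F3-600, than those of the blocks left out, at 26.2, 23.0 and 22.9 times. The strands were near balance in isolated windows, with 48.2% of the B73 reads on the plus strand.

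**Figure D5:**
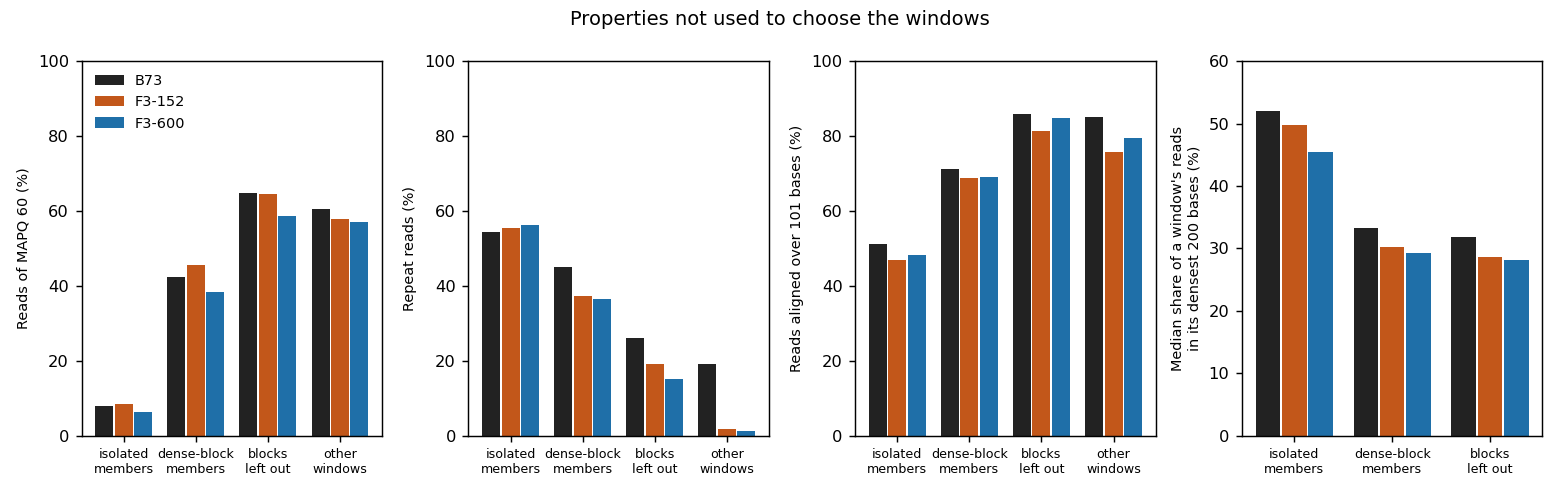
Bars give, from left to right, the share of reads with a MAPQ of 60, the share of repeat reads among the deposited reads, the share of reads aligned over 101 bases and the median share of the reads of a window that fell in its densest 200 bases (y axes, percent, from 0), for B73, F3-152 and F3-600. Window classes on the x axis are isolated, dense-block, high windows of the blocks left out and, in the first 3 panels, all other tested windows. In the first panel isolated windows are at 8.0%, 8.37% and 6.39% and windows of the blocks left out at 64.7%, 64.5% and 58.7%.

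Median fragment lengths in isolated windows were nearer to those of their own library than to those of the other libraries. The medians were 204 bases in B73, 163 in F3-152 and 287 in F3-600, against 193, 170 and 307 in the other tested windows. The quartiles differed more in F3-600, where the lower one was 173 bases in isolated windows and 213 in the others.

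Within a window, the reads of isolated windows were gathered in fewer positions than those of the other high windows, and their distribution was more alike between libraries. The densest 200 bases held a median of 52.0% of the reads of an isolated window in B73, 49.8% in F3-152 and 45.4% in F3-600. In dense-block windows the medians were 33.3%, 30.2% and 29.3%, and in the blocks left out 31.9%, 28.6% and 28.1%. Read counts in 20 steps of 50 bases were then compared between libraries, window by window, with Pearson's r. In isolated windows the median r was 0.841 between B73 and F3-152, 0.838 between B73 and F3-600 and 0.906 between both F3 lines. In dense-block windows it was 0.272, 0.256 and 0.356, and in the blocks left out 0.262, 0.223 and 0.325.

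This likeness did not depend on the highest windows. At 10 to 40 times, the median r was 0.793, 0.767 and 0.871 in 143 isolated windows and 0.263, 0.216 and 0.316 in 1274 windows of the blocks left out. The densest step lay within 50 bases in all 3 libraries in 148 of 296 isolated windows, in 35 of 332 dense-block windows and in 101 of 1482 windows of the blocks left out. These correlations are over steps that share a window, its depth and its mappable positions, and they are a description. The inner pattern of isolated windows was thus more alike between libraries than that of the windows of the blocks left out, with a coinciding densest step in 50% of them.

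The isolated sites were unevenly spread. Chromosome 1 had 29, chromosome 5 had 23, chromosome 6 had 16, chromosomes 7 and 8 had 14 each, chromosome 4 had 13, chromosome 10 had 10, chromosome 3 had 9, chromosome 2 had 4 and chromosome 9 had 1. On the 8 chromosomes with a block left out, 38 of 110 isolated sites (34.5%) lay within 5 Mb of such a block, a zone with 4.30% of the tested windows of these chromosomes. Within 20 Mb lay 60 of them (54.5%), in a zone with 18.8% of the windows. They were therefore denser near the blocks left out, while 50 lay farther out than 20 Mb. Of the 123 gaps between neighbouring isolated sites of a chromosome, 46 were 50 kb or less, so that sites were in part grouped and are not independent of each other. In the chromosome ends that the rule leaves out, a further 23 windows were high in all 3 libraries.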

How the data were processed

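CENH3 ChIP-seq reads of 3 maize libraries were used, 1 per line. The authors mapped paired reads with BWA to B73 RefGen_v4, per the labels, and deposited 1 line per aligned read with position, strand and MAPQ as a score. MAPQ ran from 20 to 60, so reads under 20 were not analysed here. The labels name CASAVA as well, and neither tool's version is given in the sources used here. No deposited value was normalized. Library depth is given in the text above and limits B73 most.

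Reads were counted by midpoint in windows of 1000 bases, and mates were joined by read name where they lay on opposite strands and spanned up to 1000 bases. Chromosome lengths were taken from the furthest read end. A dense block had 10 or more enriched bins. The sites named were the 10 with the highest level in their lowest library, the 5 with the most windows, the best of each chromosome, the 5 with the largest ratio between libraries and the 5 windows on each side of the threshold. The members, lists and comparisons were chosen with earlier results of these data known. No test was run, since each line has 1 library. The alternatives were other thresholds, read filters, a shifted grid, fragments in place of reads, other block limits, other joins and flanks. The counting rules were tested on simulated data. Counting was run in Python 3.11.15 with pandas 2.3.3 and NumPy 2.4.6, intervals came from SciPy 1.17.1, and plots were drawn with Matplotlib 3.10.9.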

Additional observations from a re-analysis of the deposited data

How the results depend on the processing

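Values are given in the order B73, F3-152, F3-600. Of 117 recomputed values for 23 results, 32 stayed within the interval of the reported value, or within 1.5 times a reported count, and 85 moved. The intervals are narrow, and the rule's own construction sets most moves in count and share. The cause of the others was not tested. No paired analysis was possible because each line has 1 library.

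At a threshold of 5 times, 1409 windows in 461 sites took 1.68%, 1.44% and 1.87% of reads, with median levels of 13.2, 14.7 and 16, and 47.8%, 82.5% and 58.5% of windows chosen on 2 libraries reached the threshold in the one not used. At 20 times, 254 windows in 98 sites took 0.926%, 0.723% and 1.02%, with medians of 38.9, 41.2 and 52.7. There, 71.9%, 74.5% and 77.0% reached the threshold in the library not used, 14.3%, 14.3% and 11.2% of reads had a MAPQ of 60, 56.3%, 56.7% and 57.0% were repeat reads, and fragment medians were 203, 162 and 284 bases.

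With a MAPQ of at least 30, the share of reads was 0.962%, 0.829% and 1.08%, the median level in F3-152 was 24.4, and 57.5% in B73 and 58.4% in F3-600 reached the threshold in the library not used. Of the isolated windows, 213 of 296 (72.0%) still met the rule, as did 314 of 332 dense-block windows, a count chosen after seeing the data. With all deposited reads the share was 2.05%, 1.94% and 2.69%, the median level 28.4, 26.8 and 28.8, and 81.6% in F3-152 and 58.2% in F3-600 reached the threshold. Windows chosen that way had 18.8%, 18.9% and 14.9% of reads at a MAPQ of 60 and 51.8%, 50.9% and 51.5% repeat reads. With the grid shifted by 500 bases, the share moved in F3-152 to 1.04% and in F3-600 to 1.4%. With fragments counted once, the share was 1.88%, 1.87% and 2.58% and the median level 27.7, 27 and 30.3.

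With blocks of 10 or more enriched bins left out, 296 windows took 0.742%, 0.633% and 0.892%, with medians in F3-152 of 29.2 and in F3-600 of 37.2. With no block left out, 2110 windows took 3.26%, 2.67% and 3.08%, with a median in F3-600 of 24.1. As medians over windows of equal weight, the share at a MAPQ of 60 was 24.1%, 25% and 21.1%, that of repeat reads 23.8%, 18.2% and 14.4%, and the fragment length 187, 158 and 295 bases. In windows at 10 to 40 times, chosen after seeing the data, the share at a MAPQ of 60 over isolated and dense-block windows together was 50.9%, 48.6% and 43.5%, and that of repeat reads 24.6%, 19.5% and 15%.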
